A study of Mus musculus with 18 samples.

Results

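The 9 genes described here belong to the complement system and to the major histocompatibility complex (MHC) class II pathway. C1qa, C1qb and C1qc encode the A, B and C chains of C1q, the recognition protein of the classical complement pathway. C4b and C3 encode the complement proteins C4 and C3, which are cleaved in turn once C1q has bound its target. H2-Aa and H2-Ab1 encode the alpha and beta chains of the mouse class II molecule I-A, H2-Eb1 encodes the beta chain of the second class II molecule, I-E, and Cd74 encodes the invariant chain that escorts class II molecules to the compartment where they load peptide. They were chosen by gene symbol and are 9 of the 15730 genes in the deposited count table.

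RNA was sequenced from whole dorsal root ganglia, which house the cell bodies of sensory neurons, at the levels (L4 to L6) that supply the sciatic nerve. All animals were C57BL/6 mice aged 6 to 8 weeks, and all ganglia were taken 24 hours after surgery. Each of the 18 samples was a pool from 2 mice, and there were 3 samples in each of 6 groups. SNA_Saline received a sciatic nerve injury with saline, SNA_NAC the same injury with 30 mM N-acetyl-cysteine (an antioxidant), Sham_Saline a sham procedure with saline, and Sham_H2O2 a sham procedure with 13 mM hydrogen peroxide. DCA received an injury of the dorsal columns, a spinal tract formed by the centrally directed axons of these neurons. LAM received only the laminectomy, the removal of bone that exposes the cord. The samples are separate pools of mice, the p-values measure the spread between these pools, and in whole ganglia fewer cells of a type and less RNA per cell cannot be told apart.

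C1q is a bundle of its 3 chains made in equal numbers, and tissue macrophages and microglia are its main source in nervous tissue. In nervous tissue C1q and C3 are known for tagging synapses, debris and apoptotic cells for uptake by phagocytes through complement receptors. Class II molecules present peptides to CD4 T cells, are made mainly by macrophages, dendritic cells and B cells, and are transcribed through the coactivator CIITA, which binds a complex of RFX, CREB and NF-Y factors on the X and Y boxes of their promoters.

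Whether the X and Y boxes bear on the shared variation of the class II genes across samples, described further on, was not tested. The promoters of H2-Aa and H2-Eb1 are shown as examples of class II promoters. Both are the 250 bases before the transcription start, 5′ to 3′ on the strand of the gene, from a RefSeq promoter table on GRCm38.p6. Capitals mark matches, searched on both strands, to CTGATTGG (a Y box), AACNGATG (the core of an X box) and TGACGTCA (an X2 box, the CREB site), none of which overlap. H2-Aa is at chr17:34287824-34288073 on the minus strand, and H2-Eb1 is at chr17:34305617-34305866 on the plus strand.
H2-Aa: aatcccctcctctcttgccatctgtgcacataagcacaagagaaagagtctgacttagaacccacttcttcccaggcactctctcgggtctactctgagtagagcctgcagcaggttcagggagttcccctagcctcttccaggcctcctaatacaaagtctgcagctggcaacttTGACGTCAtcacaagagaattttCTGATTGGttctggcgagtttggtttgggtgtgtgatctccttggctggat
H2-Eb1: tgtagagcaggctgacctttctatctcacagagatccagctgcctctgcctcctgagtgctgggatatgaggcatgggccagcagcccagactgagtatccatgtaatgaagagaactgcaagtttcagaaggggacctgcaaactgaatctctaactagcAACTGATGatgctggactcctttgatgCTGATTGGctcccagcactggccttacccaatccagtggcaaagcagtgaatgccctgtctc
The Y box match lay 51 to 44 bases before the start in H2-Aa and 62 to 55 bases before it in H2-Eb1. CTGATTGG occurred in 4.1% of the 32851 windows of 300 bases in the table (250 before to 50 after a start), AACNGATG in 2.32% and TGACGTCA in 1.79%. H2-Eb1 held the X box match, 89 to 82 bases before its start, and H2-Aa held the X2 match, 74 to 67 bases before its start. Of the 9 genes 5 were in the table, C1qb, C1qc and C3 being the others, and none of those 3 windows held any of the 3 motifs.

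On GRCm38 the C1q genes lie side by side on the minus strand, C1qb at chr4:136880129-136886187, C1qc at chr4:136889804-136893065 and C1qa at chr4:136895917-136898803. The class II chain genes lie within the MHC, H2-Ab1 at chr17:34257689-34269419, H2-Aa at chr17:34282744-34287823 and H2-Eb1 at chr17:34305867-34316674. C4b (chr17:34728380-34743882) lies in the same region, C3 (chr17:57203970-57228136) farther along the chromosome, and Cd74 at chr18:60803848-60812652. C4b has a near-identical neighbour, C4a, and class II chain genes resemble one another, so how shared reads were counted limits these genes.

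Total counts ran from 6472476 to 42435331 per sample, and all 9 genes were counted in every sample, from a lowest count of 34 (C1qc) to a highest of 2257 (Cd74). Levels are in CPM, counts put on one library size with edgeR's TMM factors, unless FPKM, which also divides by transcript length and so compares genes, is named. Atf3, an injury-induced transcription factor that checks the labels, had a mean of 62.6 CPM in Sham_Saline and 444 CPM in SNA_Saline. All 8 sensory neuron markers were present, with Nefl at a mean of 4964 CPM, and all 6 Schwann cell and all 6 satellite glia markers were counted too. Libraries differed in how strongly a gene's level followed its GC share, and this slope, in log2 CPM for 1 SD of GC share, was lowest in the third Sham_H2O2 sample (-0.219) and highest in the second Sham_Saline sample (0.431). The contrasts were therefore also fitted with offsets that take out GC share and transcript length. Values from both fits are given for some of the 9 genes whose direction or call changed.

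Per length of transcript, Cd74 was the most abundant of the 9 genes, with 36.2 ± 10.6 FPKM over all samples (SD, n = 18). H2-Eb1 followed with 24.4 ± 6.11 FPKM, H2-Aa with 19.8 ± 3.92 FPKM and H2-Ab1 with 12.8 ± 3.13 FPKM (SD, n = 18 each). Among the complement genes C1qb stood highest, with 13.4 ± 3.02 FPKM, followed by C1qa with 8.51 ± 2.59 FPKM, C4b with 6.06 ± 1.19 FPKM, C1qc with 3.96 ± 1.35 FPKM and C3 with 2.43 ± 0.677 FPKM (SD, n = 18 each). The 3 chains of C1q were therefore not level in FPKM, and C1qb exceeded C1qa by a factor of 1.60 (range over samples 1.20 to 1.91) and C1qc by 3.46 (range 2.40 to 4.70). H2-Aa exceeded its partner H2-Ab1 by a factor of 1.56 (range 1.24 to 1.84), and Cd74 exceeded H2-Aa by 1.80 (range 1.27 to 2.41). These factors rest on the lengths behind the deposited FPKM values. The longest transcripts, used for the offsets, are 3223 bases for H2-Aa, 1212 for H2-Ab1, 1088 for C1qb and 1203 for C1qc. With another choice of lengths the factors change, and H2-Aa can fall below H2-Ab1 (mean CPM 37.53 and 21.15). H2-Ea-ps, the alpha chain partner of H2-Eb1, which is known to be defective in C57BL/6 mice, was listed at 0 in all 18 samples of the FPKM table.

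C3, the protein on which all complement pathways converge, was the member whose level differed among the groups. In LAM it measured 13.2, 18.3 and 17.4 CPM in replicates 1 to 3, and in DCA 17.8, 14.4 and 18.7 CPM. In Sham_Saline it measured 11.4, 12.3 and 10.2 CPM, and in Sham_H2O2 7.63, 8.78 and 9.53 CPM. In SNA_Saline it measured 10.9, 8.75 and 11.7 CPM, and in SNA_NAC 12.1, 10.5 and 14.5 CPM. The spinal surgery groups were the highest, the peroxide sham group the lowest, and the one overlap between the 6 spinal and the 12 sciatic surgery samples was SNA_NAC replicate 3, which lay above LAM replicate 1 and DCA replicate 2.

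**Figure D1:**
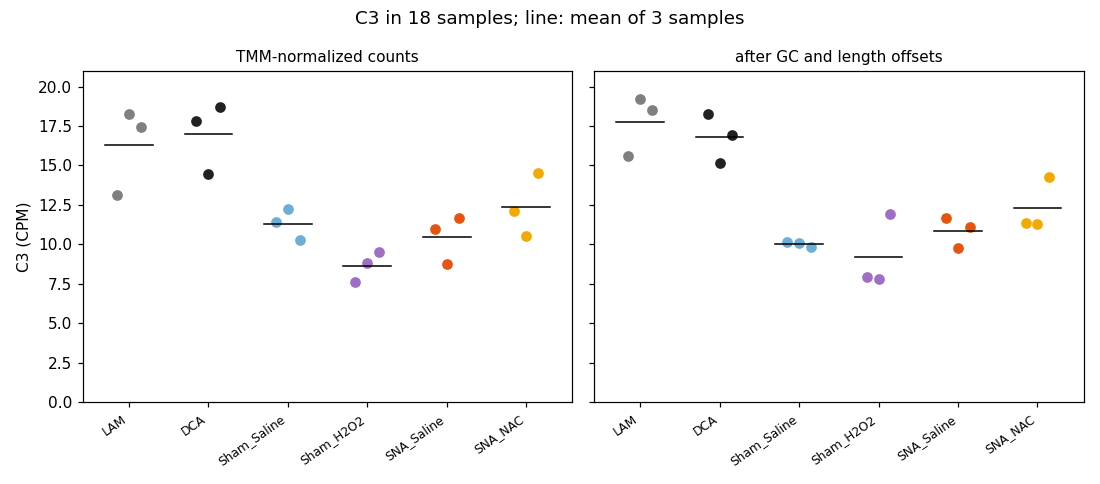
C3 in every sample by group (points, CPM on the vertical axis; lines, means of 3 samples), from scaled counts at left and after offsets for GC share and transcript length at right. The 6 LAM and DCA samples lie at 13.2 to 18.7 CPM and the 12 sciatic surgery samples at 7.63 to 14.5 CPM at left. At right they lie at 15.2 to 19.2 and 7.82 to 14.3 CPM. The split was chosen after C3 had been seen, and the share of all genes split this way was not computed.

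Tested over all 6 groups at once, C3 was the single member with a Benjamini-Hochberg adjusted p under 0.05 in edgeR's quasi-likelihood test (adjusted p = 0.00744), where 3.94% of all genes passed. This adjusted p was 0.000191 with the offsets and 6.52e-07 in DESeq2, and at most 0.0273 when any 1 sample was left out. C1qb (adjusted p = 0.00644) and C4b (adjusted p = 0.0250) joined C3 in edgeR with the offsets, where 9.24% of all genes passed. In order of group means C3 ran from 8.65 ± 0.959 CPM in Sham_H2O2 through 10.5 ± 1.53 in SNA_Saline, 11.3 ± 1.01 in Sham_Saline, 12.4 ± 2.02 in SNA_NAC and 16.3 ± 2.75 in LAM to 16.99 ± 2.26 CPM in DCA (SD, n = 3 each). Neighbours in that order overlapped in every case, and no neighbouring pair passed the adjusted threshold in edgeR. The step between SNA_NAC and LAM had the smallest p, 0.0248, with an edgeR adjusted p of 0.226 (3 samples each).

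Among all 15 pairs of groups, a set of tests added after the values were seen, edgeR without offsets called C3 in 3 and no other member in any, of 135 tests in all, 19 of which had an unadjusted p under 0.05. C3 was lower in Sham_H2O2 than in DCA by a log2 fold change of -0.98 (SE 0.17, edgeR adjusted p = 0.0227), where 0.172% of all genes passed. In Sham_H2O2 against LAM the log2 fold change was -0.92 (SE 0.17, edgeR adjusted p = 0.0480), where 0.146% of all genes passed. In SNA_Saline against DCA it was -0.70 (SE 0.17, edgeR adjusted p = 0.0279), where 2.96% of all genes passed. The adjusted p of these 3 pairs, in the order given, reached 0.228, 0.346 and 0.149 under other settings or with a sample left out. With the replicate block that of Sham_H2O2 against LAM was 0.0716. Each of the 3 pairs sets a sciatic against a spinal surgery, and in each the C3 values did not overlap, where 7.11%, 10.1% and 20% of all genes were without overlap. With the offsets C1qb joined C3 in SNA_Saline against DCA (0.45, SE 0.10, edgeR adjusted p = 0.0104), where 8.19% of all genes passed.

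The mean of the 4 sciatic surgery groups was therefore set against the mean of LAM and DCA, a contrast chosen after C3 had been seen, so its p is a description. C3 averaged 10.7 ± 1.88 CPM in the 12 sciatic surgery samples and 16.6 ± 2.28 CPM in the 6 spinal ones (SD). The log2 fold change was -0.65 (SE 0.10, 95% interval -0.86 to -0.44, edgeR adjusted p = 0.000618), where 3.66% of all genes passed, and -0.74 with the offsets, where 8.97% did. The other 8 members lay between 0.03 and 0.26 log2 units without offsets, C4b turned to -0.08 with them, and none of the 8 passed in either fit. Sciatic and spinal groups differ in the site of surgery and also in the saline, N-acetyl-cysteine or peroxide given, and these cannot be told apart.

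C4b, whose product acts just before C3 in the classical pathway, did not show this order. In LAM it measured 24.7, 33.9 and 33.2 CPM, in DCA 39.0, 30.4 and 45.6 CPM, and in Sham_Saline 29.4, 45.2 and 33.7 CPM. In Sham_H2O2 it measured 29.4, 33.6 and 23.8 CPM, in SNA_Saline 34.6, 33.5 and 45.5 CPM, and in SNA_NAC 42.5, 33.3 and 37.1 CPM. All groups overlapped, and the ranges of the spinal (24.7 to 45.6 CPM) and sciatic (23.8 to 45.5 CPM) surgery samples were nearly the same. In FPKM the ratio of C4b to C3 was 1.70 ± 0.0226 in LAM and 2.03 ± 0.157 in DCA, against 2.88 ± 0.505 in Sham_Saline, 3.06 ± 0.698 in Sham_H2O2, 3.28 ± 0.369 in SNA_Saline and 2.78 ± 0.437 in SNA_NAC (SD, n = 3 each). The 6 spinal surgery samples (1.68 to 2.20) lay below all 12 sciatic ones (2.26 to 3.52). C3 is the denominator of this ratio, so the separation is not independent of that of C3, and the split was chosen after C3 had been seen.

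**Figure D2:**
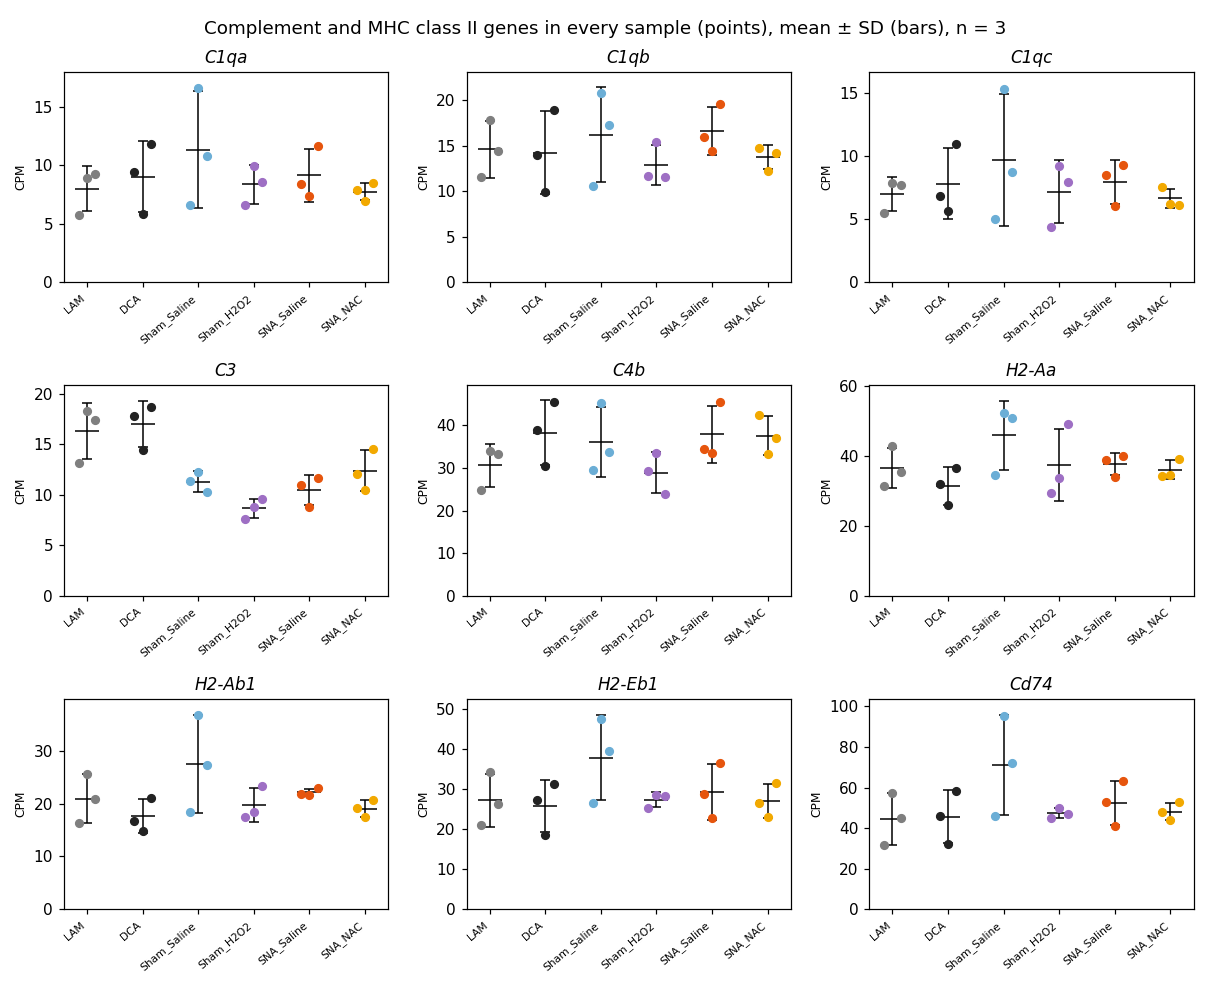
Levels of the 9 genes in every sample (points, CPM on vertical axes that start at 0), with the mean and SD of the 3 samples of each group (bars). Sham_Saline spreads widest for most genes, with Cd74 at 46.2 to 95.1 CPM, and C3 is the gene whose LAM and DCA samples stand above most others.

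The first comparison the study was built for sets sciatic nerve injury against its sham operation. Without offsets no difference beyond the spread between replicates was found for the 9 genes, and with them C1qb and C4b passed, as given further on. C1qb measured 10.6, 20.8 and 17.3 CPM in Sham_Saline and 15.9, 14.4 and 19.5 CPM in SNA_Saline. Cd74 measured 46.2, 95.1 and 72.2 CPM in Sham_Saline and 52.9, 41.1 and 63.1 CPM in SNA_Saline. Sham_Saline replicates 1 and 2 bracketed every injured sample of C1qb and all but 1 of Cd74, so the groups overlapped. None of the 9 genes passed in edgeR (0 also in DESeq2), where 2.73% of all genes passed. An unadjusted p under 0.05 was found for 0 of 9 beside 22.5% of all genes, and 0 of 9 were without overlap, against 19.1% of all genes.

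The log2 fold changes in SNA_Saline against Sham_Saline ran from -0.44 (Cd74, SE 0.25) to 0.07 (C4b, SE 0.20), with a median of -0.29 beside -0.03 over all genes. H2-Eb1 stood at -0.36 (SE 0.24), H2-Ab1 at -0.31 (SE 0.22) and H2-Aa at -0.29 (SE 0.19). C1qa stood at -0.30 (SE 0.31), C1qc at -0.28 (SE 0.35), C3 at -0.11 (SE 0.17) and C1qb at 0.04 (SE 0.25). The 95% intervals of the 9 genes together spanned -1.02 to 0.56, from the lower bound of C1qc to the upper bound of C1qb. The interval of C3 was narrower, -0.46 to 0.25. With the offsets C1qa, C1qc, C3 and H2-Ab1 changed sign, to values between 0.12 and 0.25, while H2-Aa, H2-Eb1 and Cd74 stayed below 0.

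With the offsets 2 complement genes passed in SNA_Saline against Sham_Saline, where 6.94% of all genes did. C1qb was 12.1, 11.8 and 13.4 CPM in Sham_Saline and 17.2, 18.3 and 16.2 CPM in SNA_Saline on the offset scale, a log2 fold change of 0.47 (SE 0.10, edgeR adjusted p = 0.00904). C4b was 25.9, 32.3 and 30.8 CPM in Sham_Saline and 37.6, 38.9 and 42.0 CPM in SNA_Saline, a log2 fold change of 0.41 (SE 0.10, edgeR adjusted p = 0.0151). On that scale the injured samples of both genes lay above every sham sample, but the share of all genes without overlap there was not computed. On the scale without offsets both genes overlapped, where 19.1% of all genes were without overlap. In SNA_NAC against Sham_Saline the offsets gave the same pair of genes, C1qb at 0.35 (edgeR adjusted p = 0.0412) and C4b at 0.35 (edgeR adjusted p = 0.0338), where 7.41% of all genes passed, and that contrast shares the sham samples. Without offsets those values were -0.24 and 0.06. The libraries' slopes on GC share were -0.0441, 0.431 and 0.163 in Sham_Saline and -0.0716, -0.167 and 0.12 in SNA_Saline, and the longest transcripts of C1qb and C4b have GC shares of 57.4% and 55.2%. Which scale is nearer to the RNA in the ganglia was not tested.

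**Figure D3:**
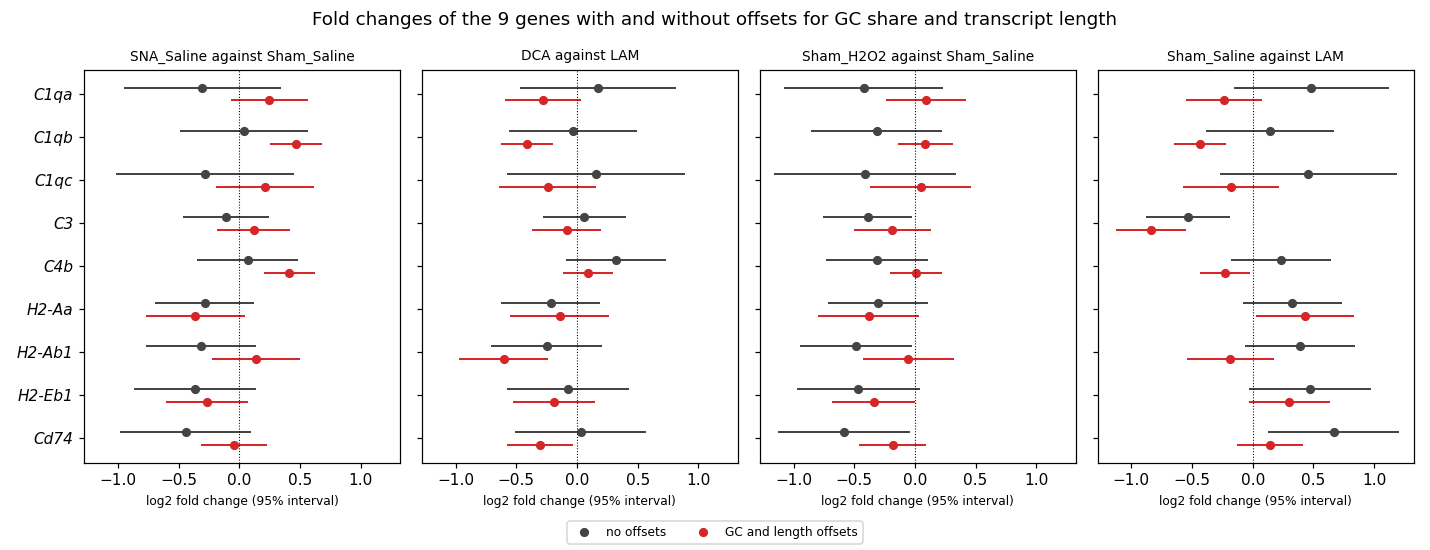
Log2 fold changes of the 9 genes (points) with 95% intervals (lines) in 4 contrasts, without offsets in grey and after the GC share and length offsets in red. In SNA_Saline against Sham_Saline C1qb moves from 0.04 to 0.47 and C4b from 0.07 to 0.41, while C3 in Sham_Saline against LAM is below 0 on both scales.

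N-acetyl-cysteine asks whether an antioxidant alters the response of the injured ganglia. C1qb measured 14.8, 12.3 and 14.2 CPM in SNA_NAC, C3 the values given above, and Cd74 47.8, 44.0 and 52.8 CPM. None of the 9 genes passed in SNA_NAC against SNA_Saline in edgeR (0 in DESeq2), where 0% of all genes passed. An unadjusted p under 0.05 was found for 0 of 9 genes and for 2% of all genes. The log2 fold changes ran from -0.27 (C1qb, SE 0.25) to 0.24 (C3, SE 0.17), with 8 of 9 below 0, of which Cd74 turned to 0.03 with the offsets. H2-Ab1 was the single gene without overlap, at 17.5 to 20.7 CPM in SNA_NAC and 21.6 to 22.9 CPM in SNA_Saline, where 14.9% of all genes did not overlap, and its log2 fold change was -0.21 (SE 0.22, edgeR adjusted p = 0.9999). In SNA_NAC against Sham_Saline 0 of 9 genes passed without offsets (0 in DESeq2), where 3.32% of all genes passed. H2-Ab1 and Cd74 were the 2 with an unadjusted p under 0.05, beside 27.6% of all genes. With the offsets C1qa, C1qb, C1qc and H2-Ab1 turned above 0 there, at 0.07 to 0.35. C3 (0.13 without and 0.30 with offsets) and C4b (0.06 and 0.35) were above 0 in both fits. The lowest values without offsets were -0.56 for Cd74 (SE 0.25) and -0.53 for H2-Ab1 (SE 0.21). When Sham_Saline replicate 1 was left out edgeR called 6 genes lower, C1qa, C1qc, H2-Aa, H2-Ab1, H2-Eb1 and Cd74. In that fit 5861 of the 15730 genes in the count table passed, against 522 with all samples.

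Hydrogen peroxide at the uninjured nerve tests whether an oxidant alone alters the ganglia. All 9 genes had lower means in Sham_H2O2 than in Sham_Saline, from -0.30 (H2-Aa, SE 0.19) to -0.58 (Cd74, SE 0.26) on the log2 scale, with a median of -0.41 beside -0.02 over all genes. With the offsets C1qa, C1qb, C1qc and C4b were above 0, at 0.01 to 0.09, and the 5 others stayed below 0. None passed in edgeR (0 in DESeq2), where 0% of all genes passed. C3, H2-Ab1 and Cd74 reached an unadjusted p under 0.05, as did 9.15% of all genes. Cd74 measured 45.3, 50.02 and 46.9 CPM in Sham_H2O2, all close to the lowest Sham_Saline sample and below the middle one. C3 was the gene without overlap (5.43% of all genes), its log2 fold change -0.39 (SE 0.17, edgeR adjusted p = 0.449). With the offsets C3 stood at -0.19 and its samples overlapped (7.90, 7.82 and 11.9 CPM in Sham_H2O2, 10.2, 10.1 and 9.83 CPM in Sham_Saline), Cd74 stood at -0.18 and H2-Ab1 at -0.05.

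The dorsal column injury asks whether damage to the central branch acts on the ganglia like damage to the peripheral one. In DCA against LAM edgeR passed 0 of the 9 genes (DESeq2 also 0) and 0% of all genes. An unadjusted p under 0.05 was found for 0 of 9 and for 5.04% of all genes. C4b had the highest value, 0.32 (SE 0.19), and H2-Ab1 the lowest, -0.25 (SE 0.22), and C1qb, C3 and Cd74 lay between -0.03 and 0.06. With the offsets 8 of 9 genes were below 0, H2-Ab1 at -0.61 (SE 0.17) and C1qb at -0.41 (SE 0.10) being the lowest, with edgeR adjusted p of 0.729 each. Among the 8, C1qa (0.17 to -0.28), C1qc (0.15 to -0.24), C3 (0.06 to -0.09) and Cd74 (0.03 to -0.30) changed sign.

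The difference between the sciatic and the dorsal column contrast was tested directly, and 0 of 9 genes passed in edgeR (0 in DESeq2), where 1.61% of all genes passed. An unadjusted p under 0.05 was found for 0 of 9 and for 31.4% of all genes. Its values ran from -0.47 (C1qa, SE 0.43, and Cd74, SE 0.36) to 0.07 (C1qb, SE 0.35) on the log2 scale, and with the offsets all but H2-Aa and H2-Eb1 were above 0. C1qb passed with the offsets, at 0.88 (SE 0.15, edgeR adjusted p = 0.00177), where 4.6% of all genes did. On that scale C1qb was 15.0, 18.9 and 16.1 CPM in LAM and 13.0, 11.4 and 13.1 CPM in DCA. The SNA_Saline and Sham_Saline values on that scale are given above. In DCA against LAM 0% of all genes passed with the offsets. H2-Ab1 (0.74, SE 0.25) had an edgeR adjusted p of 0.0811 with the offsets.

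The control groups of the sciatic and spinal surgeries also differed from one another in mean. In Sham_Saline against LAM 8 of 9 genes had a higher mean in Sham_Saline, C3 being the exception, and with the offsets C1qa, C1qb, C1qc, C4b and H2-Ab1 were below 0 as well. Cd74 stood at 0.67 (SE 0.25, edgeR adjusted p = 0.115), H2-Eb1 at 0.47 (SE 0.24) and C1qa at 0.48 (SE 0.30), with overlapping samples. C3 stood at -0.53 (SE 0.16, edgeR adjusted p = 0.104) and was the gene without overlap, where 30.6% of all genes were without it. None of the 9 genes passed in edgeR, where 0.0699% of all genes passed. C3 and Cd74 were the 2 with an unadjusted p under 0.05, beside 30.3% of all genes. C3 passed in DESeq2 (adjusted p = 0.0419) and in edgeR with the offsets (-0.84, SE 0.14, adjusted p = 0.0168), where 0.114% of all genes passed. Without Sham_Saline replicate 1 edgeR called 5 genes, C1qa, H2-Ab1, H2-Eb1 and Cd74 higher and C3 lower. In that fit 5009 of the 15730 genes in the count table passed, against 11 with all samples.

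In 4 of the 6 groups 1 library was the lowest or the highest of its 3 for all 9 genes. In LAM replicate 1 was the lowest of the 3 for all 9 genes, in DCA replicate 2 was the lowest and replicate 3 the highest for all 9, and in SNA_Saline replicate 2 was the lowest and replicate 3 the highest for all 9. In Sham_Saline replicate 2 was the highest for all 9 and replicate 1 the lowest for 8, C3 being the exception. Sham_Saline replicate 2 was also the highest of all 18 samples for 7 genes, C3 and C4b being the exceptions. The slope on GC share moved with this, at -0.187 in LAM replicate 1, -0.0792 in DCA replicate 2, 0.249 in DCA replicate 3, -0.167 in SNA_Saline replicate 2 and 0.12 in SNA_Saline replicate 3. LAM replicate 1, DCA replicate 2 and SNA_Saline replicate 2 had also the lowest totals of their groups, 9843129, 11827642 and 9467654 counts. In the 2 other groups no library was the lowest or the highest for all 9 genes, but most genes shared an order. In Sham_H2O2 replicate 1 was the lowest for all but C1qb and C4b, which were lowest in replicate 3. Replicate 2 was the highest there for all but C3, H2-Aa and H2-Ab1, which were highest in replicate 3, the sample with the lowest slope. In SNA_NAC replicate 2, with the lowest slope (-0.17) and total of its group, was the lowest for all but C1qc and H2-Aa. Replicate 3 was the highest there for all but C1qb, C1qc and C4b, which were highest in replicate 1.

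On the scale without offsets the spread of the members was wide for their level. The pooled within-group SD of log2 CPM exceeded 0.211, the median of the 6366 genes in the same range of CPM, for 8 of the 9 genes. C1qc (0.48) lay at percentile 96.1 of those genes and C1qa (0.42) at 92.4, Cd74 (0.36) at 86.8 and C1qb (0.34) at 84.3. C3 (0.20) was the one below the median, at percentile 46.2. These percentiles were not taken with the offsets. In SNA_Saline against Sham_Saline the SEs of the 9 genes ran from 0.17 to 0.35 without offsets and from 0.10 to 0.19 with them.

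Across the 18 samples the C1q chains varied together, with Pearson's r of 0.842 to 0.921 between pairs of chains (Spearman's rho 0.831 to 0.903). The class II genes and Cd74 did so as well, with r of 0.809 to 0.975 (rho 0.775 to 0.975), and C1q chains with class II genes with r of 0.623 to 0.901. C3 stood apart from the class II genes, with r of -0.03 to 0.09 over all samples, but its deviations from the group means followed theirs, with r of 0.606 to 0.770. Samples of a pair share the library, its depth and its base composition, and the mean log2 CPM of the C1q chains had r = 0.793 with the slope on GC share, that of the class II genes 0.661, C4b 0.725 and C3 0.127 (n = 18). After the offsets the ranges were 0.524 to 0.731 for pairs of C1q chains, 0.285 to 0.896 for pairs of class II genes and 0.071 to 0.709 for C1q with class II.

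**Figure D4:**
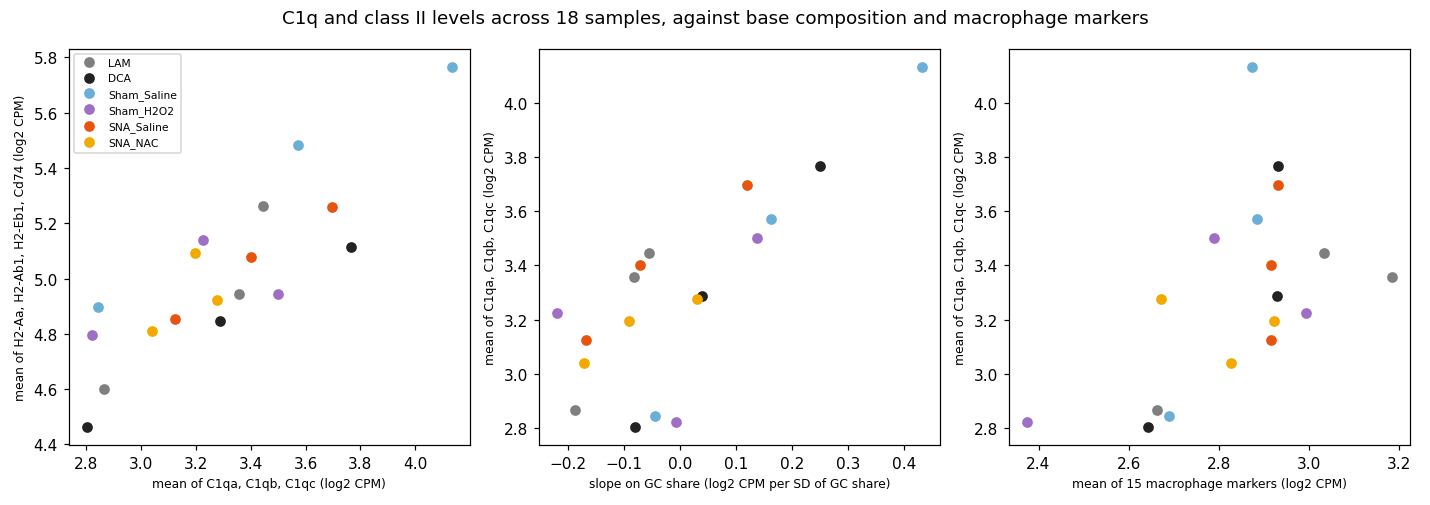
Each point is 1 of 18 samples, coloured by group, with the mean log2 CPM of the C1q chains plotted against that of the class II genes and Cd74 (left), the slope on GC share (middle) and 15 macrophage markers (right). Sham_Saline replicate 2, the sample with the slope of 0.431, is at the upper end of the first and second panels.

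Macrophage markers, 15 of 16 listed, were all counted and summed to 217 to 294 CPM in LAM, 206 to 256 in DCA, 210 to 257 in Sham_Saline, 160 to 287 in Sham_H2O2, 214 to 252 in SNA_Saline and 181 to 233 in SNA_NAC. The groups overlapped, and the highest sum was that of a LAM sample. The C1q chains had r = 0.542 with the mean of these markers over the 18 samples, and 0.851 once both were put on the offset scale. For the class II genes the values were 0.451 and 0.422, and for C3 0.484 and 0.561. B cell markers (4 of 6) summed to 9.68 to 11.7 CPM in Sham_Saline and to 4.32 to 10.4 CPM in the other groups, so Sham_Saline stood high in these as in the class II genes, and their part in the class II levels was not tested. Dendritic cell markers (6 of 9) summed to 46.8 to 54.6 CPM in the injured sciatic groups and 34.8 to 45.9 CPM elsewhere. Flt3 (mean 20.6 CPM) and Zbtb46 (mean 17.96 CPM) made up most of that sum, 2 of the 6 markers had lower means in SNA_Saline than in Sham_Saline, and Zbtb46 was the one past the threshold there (0.81, edgeR adjusted p = 0.00176). The mean log2 CPM of the 6 markers overlapped between injured and other groups. T cell markers (2 of 7) summed to 1.28 to 3.92 CPM, with Cd3e and Cd3d listed at 0 in 2 and 3 samples of the FPKM table.

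On the scale without offsets the C1q chains also varied with markers of cells other than macrophages. Over the 18 samples r was 0.804 with the mean of 6 Schwann cell markers, 0.775 with 5 red blood cell markers, 0.673 with 8 sensory neuron markers and -0.514 with 6 satellite glia markers. Without Sham_Saline replicate 2 these values were 0.718, 0.720, 0.468 and -0.265. For the class II genes r was 0.767, 0.694, 0.539 and -0.338 over all samples. Without Sham_Saline replicate 2 it was 0.658, 0.611, 0.211 and 0.033, so the values for sensory neuron and satellite glia markers rested on that library. With the mean of 7 endothelial markers r was 0.649 for the C1q chains and 0.716 for the class II genes. Without Sham_Saline replicate 2 these endothelial values were 0.612 and 0.706. Red blood cell markers summed to 245 to 840 CPM in Sham_Saline and 248 to 283 CPM in Sham_H2O2, and the part of blood in the values was not tested. All these values of r are without offsets. On that scale the C1q chains had r = 0.793 with the slope on GC share, and the class II genes 0.661. For these markers no values with the offsets are given, so they cannot be set beside the 0.851 for macrophage markers.

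The genes whose log2 CPM was most like that of the C1q chains, of 12982 genes with a mean count of at least 50, were Wibg (r = 0.932), Myl12a (0.925), Cdkn2d (0.922), Npepl1 (0.920) and Daxx (0.919). For the class II genes and Cd74 they were Pcolce (r = 0.906), an enhancer of procollagen processing, Col1a1 (0.868), a collagen chain, Islr (0.867), Rab34 (0.865) and Rcn3 (0.860). C3 was most like Lbp (r = 0.879), the lipopolysaccharide-binding protein, then Txnip (0.828), the chemokine Ccl6 (0.818), Scube1 (0.818) and Fam107a (0.779). C4b was most like Chst1 (r = 0.938), then Slc7a5 (0.935) and Slc3a2 (0.906), the light and heavy chain of an amino acid transporter, Col16a1 (0.903) and Cry2 (0.902). All these are correlations over the same 18 libraries, in which genes share the depth and base composition of a library. No listed macrophage marker was among the 5 nearest to C1q, but markers with a mean count under 50, such as Trem2 (at most 37), could not enter. This ranking was made without offsets, and the r of 0.851 between the C1q chains and the macrophage mean was found with them.

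The rest of both pathways was measured through 9 lists with 78 genes in the count table. In SNA_Saline against Sham_Saline 2 of the 78 passed in edgeR (4 in DESeq2), against 2.73% of all genes. Nfyb, a subunit of the NF-Y factor that binds the Y box, rose from 28.1 ± 2.92 to 40.8 ± 2.58 CPM (SD, n = 3 each), which is 0.54 on the log2 scale (SE 0.11, edgeR adjusted p = 0.00925), and 0.37 with the offsets. Susd4, an inhibitor of complement C3 convertases, fell from 80.6 ± 6.52 to 59.4 ± 1.88 CPM (SD, n = 3 each), which is -0.44 on the log2 scale (SE 0.10, edgeR adjusted p = 0.0237), and was at -0.24 and no longer past the threshold with the offsets. In SNA_NAC against Sham_Saline Nfyb (0.60, edgeR adjusted p = 0.00367) and Jak2 (0.72, edgeR adjusted p = 0.0127), a kinase of the interferon gamma receptor, passed. Ciita, the coactivator on which class II transcription depends, was low, at 1.34 to 1.67 CPM in the means of the 6 groups, and Ifng itself was listed at 0 in 13 of 18 samples of the FPKM table.

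Early complement components outside the 9 genes gave 10 measured genes, none past the threshold in SNA_Saline against Sham_Saline in edgeR (0 with an unadjusted p under 0.05), with a median of -0.02 (0.05 with the offsets) beside -0.03 over all genes. Of these C1s1, the protease carried by C1q, was highest at 20.6 CPM. Terminal components were low. Of 7 listed genes 3 were in the count table, Hc (the C5 gene) being highest at 1.56 CPM, and C6, C8a, C8b and C9 were at most 0.0827 FPKM in any sample. C4a and Cfb, the factor B gene of the alternative pathway, reached at most 0.077 and 0.107 FPKM. The regulators ranged widely in mean FPKM. Highest were Cd55, which speeds the decay of convertases, at 139 FPKM, Cd59a, which blocks the terminal complex, at 128, Clu at 93.5 and Serping1, the C1 inhibitor, at 67.2. Cpn1 (0.595), Cfi (0.448), Csmd2 (0.200), Cd46 (0.199) and Csmd3 (0.0973) lay below the terminal component C8g (0.898 FPKM). Of 15 inhibitors and regulators measured 7 had a higher and 8 a lower mean after sciatic injury, with a median of -0.10, and the 10 receptors (highest in CPM, Calr) had a median of 0.13.

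Without offsets the other class II chains were all below 0 in SNA_Saline against Sham_Saline, as were the class II members, and none passed. With the offsets H2-DMb1 (0.07) was above 0, as was H2-Ab1. The 4 measured, H2-DMa, H2-DMb1, H2-DMb2 and H2-Ob, had a median of -0.36 (-0.12 with the offsets). H2-DMa, part of the peptide exchange factor of class II molecules, was highest at 12.1 CPM. The 12 measured genes of class II processing (highest Ctsb, a lysosomal protease) had a median of 0.10 (0.15 with the offsets). The 8 transcription factors (highest Creb1) had -0.03 (0.12 with the offsets). The 7 interferon gamma pathway genes (highest Jak1) had 0.04 (0.17 with the offsets). The 9 MHC class I genes (highest B2m) had 0.09, and 0.34 with the offsets, beside 0.02 over all genes with them. In edgeR without offsets Susd4 and Nfyb were the 2 of the 78 genes past the threshold in this contrast. With the offsets Nfyb, Jak2 (0.44, edgeR adjusted p = 0.00370) and Nlrc5 (0.70, edgeR adjusted p = 0.0413), a coactivator of class I genes, were, and without them Jak2 stood at 0.54 (edgeR adjusted p = 0.0682) and Nlrc5 at 0.49 (edgeR adjusted p = 0.166).

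In the contrasts where no pathway gene passed in edgeR, the smallest p-values were as follows. In DCA against LAM (0 of 78 in DESeq2, 7 with an unadjusted p under 0.05, beside 5.04% of all genes) C5ar1, the C5a receptor, stood at -0.67 (SE 0.27) and Ctss, the protease that trims the invariant chain, at -0.58 (SE 0.24), each with an edgeR adjusted p of 0.624. In Sham_H2O2 against Sham_Saline (0 in DESeq2, 5 with an unadjusted p under 0.05, beside 9.15% of all genes) Vtn stood at -0.71 (SE 0.24) and Lrp1 at -0.78 (SE 0.28), each with an edgeR adjusted p of 0.449. In SNA_NAC against SNA_Saline (0 in DESeq2, 2 with an unadjusted p under 0.05, beside 2% of all genes) Fcnb stood at -1.49 (SE 0.40) on 0.386 against 1.08 CPM and Csmd2 at 0.70 (SE 0.30), each with an edgeR adjusted p of 0.9999. In Sham_Saline against LAM (8 in DESeq2, which gave 14 of the 78 no adjusted p, and 18 with an unadjusted p under 0.05, beside 30.3% of all genes) Ctss stood at -1.03 (SE 0.24) and Cd59a at -0.39 (SE 0.10), each with an edgeR adjusted p of 0.104. In the difference between the injuries (9 in DESeq2, which gave 11 of the 78 no adjusted p, and 21 with an unadjusted p under 0.05, beside 31.4% of all genes) Susd4 stood at -0.58 (edgeR adjusted p = 0.0504) and Nfyb at 0.59 (edgeR adjusted p = 0.0565). With the offsets edgeR called 3 pathway genes in that difference, C5ar1 at 1.46 (adjusted p = 0.0281), Nlrc5 at 1.16 (adjusted p = 0.0250) and Jak2 at 0.48 (adjusted p = 0.0311), where 4.6% of all genes passed.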

How the data were processed

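RNA from whole dorsal root ganglia was sequenced with a strand-specific mRNA kit as 100-cycle single-end reads, per the labels' protocols. The authors' deposited counts are whole reads per gene, and the authors' deposited FPKM values cover 45904 features. The submitters' processing notes name TopHat2 2.0.12, Bowtie2 2.2.3, SAMtools 0.1.19, HTSeq 0.6.0, edgeR 3.8.6, limma 3.22.7, R 3.1.1, FastQC 0.10.1 and the mm10 build, while the strand setting of the counting is not given in the sources used here. The deposited count table holds 15730 genes with mean counts of at least 10.1, so genes of lower counts are described from FPKM only.

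Samples were grouped by their titles. Counts were fitted with edgeR 4.0.16 (R 4.3.3) over all 18 samples, with TMM scaling, its default filter on low counts and quasi-likelihood tests, with Benjamini-Hochberg adjustment across all 15730 genes and a threshold of 0.05. Tests were run on pools of 2 mice, 3 in each group. Alternatives were DESeq2 1.42.0, limma 3.58.1 on log2(FPKM + 1) and log2(FPKM + 0.1), at least 10 counts in every sample, no filter, a threshold of 0.10, only the groups of a contrast, a replicate block, offsets for the longest transcript's GC share and length (splines with 5 degrees of freedom), and leaving out each sample. The fitting was tested on simulated data. Figures were drawn with matplotlib 3.10.9.

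The labels give a sequencing lane equal to the replicate number, so same-numbered samples share a lane but come from different mice. Deviations from group means of same-numbered samples had mean correlations between -0.362 and 0.311 over 6 contrasts, and the replicate block stands as an alternative.

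The text names the 9 genes, per contrast up to 4 pathway genes of largest change among those passing (otherwise the 2 of smallest p), the most abundant gene of each list, and the 5 genes most like each set. Other genes named were chosen after their values were seen. The 9 genes and all lists were chosen with earlier results of these data known.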

Additional observations from a re-analysis of the deposited data

How the results depend on the processing

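C3 passed in the test over all 6 groups, and in sciatic against spinal surgery, under every alternative run and with each sample left out. The sciatic against spinal contrast, the pairs of groups and the correlations after offsets or without Sham_Saline replicate 2 were chosen after seeing the data. In all settings 0 of the 9 genes were called in Sham_H2O2 against Sham_Saline, SNA_NAC against SNA_Saline and DCA against LAM.

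Calls depended on the offsets for GC share and length. Members called in SNA_Saline against Sham_Saline went from 0 to 2 (all genes 430 to 1091), in SNA_NAC against Sham_Saline from 0 to 2 (522 to 1165), in Sham_Saline against LAM from 0 to 1 (11 to 18; DESeq2 also 1, 1083 genes), in the difference of the injuries from 0 to 1 (254 to 724) and over all groups from 1 to 3 (619 to 1454). In SNA_Saline against Sham_Saline 863 genes passed in DESeq2 and 65 in a fit of only those groups. Leaving out 1 sample gave 0 to 0 members in SNA_Saline against Sham_Saline (174 to 2548 genes), 0 to 6 in SNA_NAC against Sham_Saline (215 to 5861 genes), 0 to 5 in Sham_Saline against LAM (4 to 5009 genes), 0 to 0 in the difference (55 to 4600 genes) and 1 to 2 over all groups (392 to 2152 genes), the highest of each without Sham_Saline replicate 1. The cause was not tested.

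The replicate block (lanes as pairing) left 0 members in SNA_Saline against Sham_Saline (320 genes) and, C3 in Sham_H2O2 against LAM apart (adjusted p = 0.0716), changed no other call. With block and offsets the members called were 2 in SNA_Saline against Sham_Saline, 2 in SNA_NAC against Sham_Saline, 1 in Sham_Saline against LAM, 1 in the difference and 3 over all groups (968, 1104, 21, 627 and 1361 genes).

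Signs turned with the offsets (with block and offsets in parentheses). In SNA_Saline against Sham_Saline C1qa became 0.25 (0.25), C1qc 0.21 (0.24), C3 0.12 (0.11) and H2-Ab1 0.14 (0.14). In Sham_H2O2 against Sham_Saline C1qa became 0.091 (0.091), C1qb 0.087 (0.087), C1qc 0.047 (0.040) and C4b 0.0084 (0.011). In SNA_NAC against Sham_Saline C1qb became 0.35 (0.35) and H2-Ab1 0.065 (0.065). In Sham_Saline against LAM C1qa became -0.24 (-0.22), C1qb -0.43 (-0.43), C1qc -0.18 (-0.18), C4b -0.23 (-0.22) and H2-Ab1 -0.18 (-0.18). In the difference C1qa became 0.53 (0.51) and Cd74 0.26 (0.25). The cause was not tested.

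With 1 sample left out signs turned as well. In SNA_Saline against Sham_Saline the range was -0.58 to 0.093 for C1qa, -0.20 to 0.26 for C1qb, -0.60 to 0.23 for C1qc and -0.087 to 0.27 for C4b. It was -0.72 to 0.11 for C1qc in Sham_H2O2 against Sham_Saline, -0.070 to 0.26 for C4b in SNA_NAC against Sham_Saline, -0.087 to 0.37 for C1qb and -0.059 to 0.77 for C1qc in Sham_Saline against LAM, and -0.16 to 0.33 for C1qb in the difference. C1qc had as few as 34 counts in a sample, which limits its precision.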
